A study of Mus musculus with 9 samples.

Results

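Insm1 and 8 other genes of neurogenic transcriptional regulators (Nhlh1, Nhlh2, Neurod1, Myt1, St18, Prox1, Runx1t1 and Ebf1) were followed in Merkel cells and basal keratinocytes of newborn mouse skin. The 9 genes were found by symbol among the 49672 rows of the table, each under 1 Ensembl identifier. Epidermal cells were taken at postnatal day 0 from mice with a Sox2-GFP reporter, which is common to every group, controls included. Merkel cells, which sense touch with sensory nerve endings, were sorted as GFP-positive and gave 3 libraries. Basal keratinocytes were sorted as negative for GFP and positive for SCA1 and CD49F, and gave 6 libraries. The samples carry 3 numbers, each with a Merkel library, a first basal library and a second one. What distinguishes first from second is not in the labels, nor whether a number stands for 1 mouse or pooled mice. P-values thus cover only the spread between numbers, part of which may be technical.

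Neurogenic regulators act in relays. Proneural basic helix-loop-helix (bHLH) factors such as Atoh1 start a neural or sensory fate, and later factors carry cells through differentiation. Insm1 encodes a zinc finger repressor that endocrine cells of the pancreas, gut and adrenal medulla need to mature. Its SNAG domain, a short N-terminal motif, recruits the histone demethylase LSD1 with the CoREST proteins. Nhlh1, Nhlh2 and Neurod1 encode bHLH factors of differentiating neurons, and Neurod1 is also an endocrine factor. Myt1 and St18 encode related zinc finger proteins of neural and endocrine progenitors. Prox1 encodes a homeodomain protein known from lymphatic vessels, lens and neural progenitors. Runx1t1 encodes a corepressor of the ETO family, and Ebf1 a factor of the Collier/Olf/EBF family known from B cells, adipocytes and neurons.

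Of the related genes Nhlh1 and Nhlh2, the first was expressed and the second was not, so the sequences upstream of their starts are shown first, with that of Prox1, which was expressed, and that of Neurod1, which stayed near 0. RefSeq windows on build GRCm38.p6, which has the coordinates of mm10, were on hand for 6 of the 9 genes. The stretch printed ends before any exon of the gene in GENCODE M21. Capitals mark E-boxes, the CANNTG hexamers (N is any base, and the motif reads the same on both strands) that bHLH proteins bind.
Nhlh1: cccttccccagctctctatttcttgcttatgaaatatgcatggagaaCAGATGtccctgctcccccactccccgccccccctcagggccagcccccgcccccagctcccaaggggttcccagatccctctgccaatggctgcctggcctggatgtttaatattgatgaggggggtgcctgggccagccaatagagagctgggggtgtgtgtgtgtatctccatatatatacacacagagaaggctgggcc
Nhlh2: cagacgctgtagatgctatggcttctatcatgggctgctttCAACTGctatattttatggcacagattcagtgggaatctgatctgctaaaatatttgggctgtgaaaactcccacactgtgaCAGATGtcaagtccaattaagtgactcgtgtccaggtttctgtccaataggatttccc
Prox1: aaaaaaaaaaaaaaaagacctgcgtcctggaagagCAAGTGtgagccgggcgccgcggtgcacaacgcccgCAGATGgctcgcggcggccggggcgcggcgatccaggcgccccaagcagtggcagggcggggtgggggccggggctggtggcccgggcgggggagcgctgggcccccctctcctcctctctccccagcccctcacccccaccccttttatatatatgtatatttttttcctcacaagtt
Neurod1: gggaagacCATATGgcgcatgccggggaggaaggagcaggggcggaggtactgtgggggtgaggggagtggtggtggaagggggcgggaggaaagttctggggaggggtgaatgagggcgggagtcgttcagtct
These lie at chr1:172057597-172057846 (minus strand), chr3:102009895-102010075 (plus strand), chr1:190170828-190171077 (minus strand) and chr2:79456752-79456886 (minus strand). Over whole windows of 300 bases, the E-box CAGATG, searched on both strands, was found upstream of Nhlh1, Nhlh2 and Prox1 and in no window of Neurod1, Myt1 or Ebf1. For Prox1 this holds only for the window of the printed stretch. Another Prox1 window, chr1:190169466-190169765 (minus strand), held 0 CAGATG and 0 CANNTG. The hexamer CAGATG is counted below over all genes. CAGATG stood in 17.2% of all 32851 windows of that length, and any CANNTG in 72.3%. CAGATG was thus present both at Nhlh1, which was expressed, and at Nhlh2, which was not. The Nhlh1 window had a GC content of 56.3% and the Nhlh2 window 43.3%, against a median of 52.7% over all windows. A match describes the letters alone.

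The values are TPM, a transcript abundance corrected for length that sums to the same total in each library. Read depth is unknown, so no counting interval is given, and values near 0 are the least precise. Between 13012 and 13649 genes reached 1 TPM in each library. Merkel markers were at summed levels of 735.1 to 986.4 TPM in Merkel libraries, against 2.03 to 5.65 in basal ones, and all 7 (Krt8, the most abundant, Krt18, Krt20, Atoh1, Sox2, Piezo2 and Chga) were called higher by the rule given with the tests. Of the 6 basal keratinocyte markers 5 were called lower in Merkel libraries (Krt14, Krt5, Itga6, Itgb4 and Col17a1), where the list still summed to 4539 to 5076 TPM against 12826 to 17317. The sorted fractions thus carried the markers that their labels name, and Merkel libraries held keratinocyte transcripts as well. Sox2, the gene behind the GFP sort, and Itga6, the gene of CD49F, are not independent of the sort. The EGFP row was at 178.3 to 246.8 TPM in Merkel, 1.73 to 3.72 in the first and 13.43 to 18.29 in the second basal libraries. The source of the difference between first and second was not tested. In these bulk samples fewer cells of a type and less RNA per cell cannot be told apart.

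In TPM as deposited, 6 of the 9 genes were expressed in Merkel cells and 3 stayed below 1 TPM in every library. Insm1 was the most abundant, followed by Myt1, Nhlh1, Prox1, Ebf1 and Runx1t1. St18, Neurod1 and Nhlh2 remained near 0. In each of the 9 genes the lowest Merkel library lay above the highest basal library, a separation that 9.55% of the 28451 genes above 0 in any library showed. Among genes above 0 but too low for testing, as the last 3 are, the share was 7.49%.

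**Figure D1:**
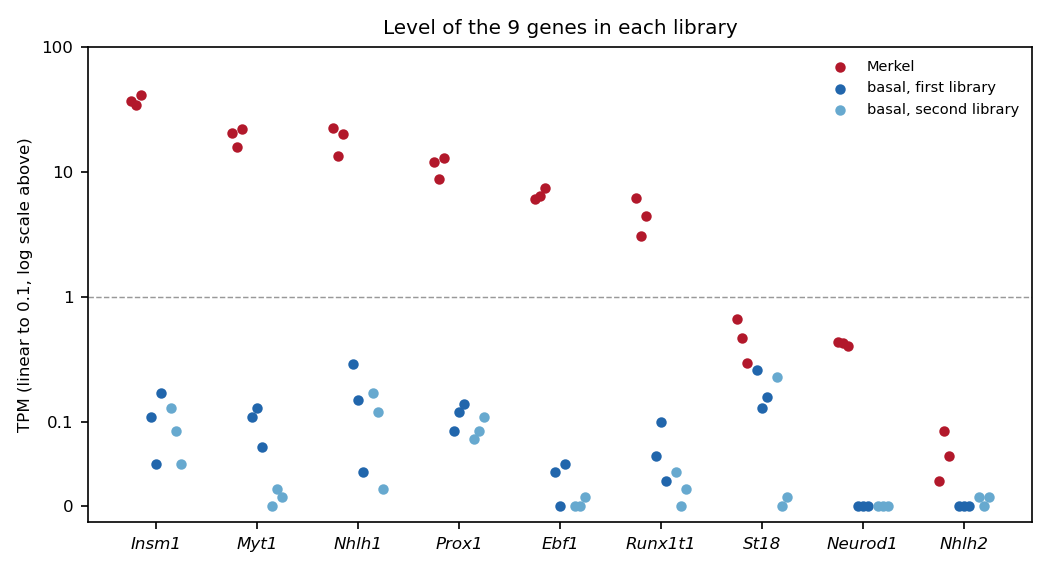
TPM (linear to 0.1, log scale above) of the 9 genes in 3 Merkel, 3 first basal and 3 second basal libraries, 1 point per library. The 6 genes on the left lie between 3.10 and 41.12 TPM in Merkel libraries, and no basal point of any of the 9 genes exceeds 0.29 TPM (dashed line: 1 TPM).

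Insm1, the endocrine zinc finger repressor, lies on chromosome 2 from 146221921 to 146225020 (mm10, plus strand). It was at 37.16, 34.63 and 41.12 TPM in Merkel replicates 1, 2 and 3. In the first basal libraries it was at 0.11, 0.05 and 0.17 TPM, and in the second at 0.13, 0.09 and 0.05. The groups did not overlap, and the Merkel libraries differed from each other by at most 1.19-fold. On the log2(TPM + 1) scale, on which all fold changes here are given unless another is named, the difference was 5.13 ± 0.12 (SE, 3 Merkel against 3 averaged basal values). The test was limma, fitted over 13822 genes with Benjamini-Hochberg adjustment (adjusted p = 2.8e-08). By this fold change Insm1 stood at rank 21 of the 13822 tested genes.

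Nhlh1, a bHLH gene of newly formed neurons, lies on chromosome 1 from 172052292 to 172057573 (minus strand). Its Merkel libraries were at 22.43, 13.44 and 19.99 TPM and its basal libraries at 0.02 to 0.29. The log2 fold change was 4.09 ± 0.19 (limma adjusted p = 9.0e-07). Its relative Nhlh2, which in the mouse acts in hypothalamic neurons that govern body weight and puberty, lies on chromosome 3 from 102010076 to 102015492. Nhlh2 was at 0.03, 0.09 and 0.06 TPM in Merkel libraries, against 0 to 0.01 in basal ones. Nhlh1 thus held 99.3% to 99.9% of the summed TPM of this pair in Merkel libraries.

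Neurod1, the bHLH gene of endocrine pancreas and neurons, lies on chromosome 2 from 79452521 to 79456751. This is within the span of Cerkl, from 79330543 to 79456785 on the same strand, which the Neurod1 stretch printed above also enters. Cerkl was at a mean of 0.0433 TPM in Merkel and 0.105 in basal libraries, and how reads of this pair were divided is not known. Neurod1 was at 0.44, 0.43 and 0.41 TPM in Merkel libraries and was listed at 0 in all 6 basal libraries. The separation was complete, at a Merkel level that was below the 1 TPM needed for testing. No fold is given against a group at 0. Of its relatives Neurod2 was at 0.04 to 0.51 TPM in Merkel libraries and 0 in basal ones, and Neurod4 and Neurod6 were listed at 0 in all 9 libraries.

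Myt1, a zinc finger gene of neural and endocrine progenitors, lies on chromosome 2 from 181763332 to 181827797. It was at 20.66, 15.73 and 22.06 TPM in Merkel libraries, with a log2 fold change of 4.26 ± 0.15 (limma adjusted p = 2.2e-07). In the first basal libraries it was at 0.11, 0.13 and 0.07 TPM and in the second at 0, 0.02 and 0.01. These basal levels were too low for testing, and limma without a filter gave an adjusted p = 0.11 for second against first basal libraries. St18, the related gene on chromosome 1 from 6487231 to 6860940, was at 0.67, 0.47 and 0.30 TPM in Merkel libraries. In basal libraries St18 reached up to 0.26 TPM, so that the lowest Merkel and the highest basal library lay only just apart. Myt1l, the neuronal relative, was at 0.02 to 0.03 TPM in Merkel libraries and 0 in basal ones. Of the summed TPM of these 3 genes Myt1 held 96.7% to 98.6% in Merkel libraries.

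Prox1, the homeodomain gene, lies on chromosome 1 from 190118035 to 190170714. It was at 11.95, 8.81 and 12.92 TPM in Merkel libraries, against 0.08 to 0.14 in basal ones (log2 fold change 3.45 ± 0.16, limma adjusted p = 7.7e-07). It overlaps Prox1os on the opposite strand, which was at a mean of 1.33 TPM in Merkel libraries and 0 in basal ones. The library kit keeps strand, but the strand setting of the counting is not given in the sources used here, so reads of this pair may have been divided between them. Prox1 marks lymphatic endothelium in other tissues. Of the lymphatic and blood endothelial markers 0 of 6 were called by limma, with 1 tested. That gene, Pecam1, was at 1.76 ± 0.433 TPM in Merkel cells against 0.408 ± 0.0785 (SD, n = 3), with a log2 fold change of 0.97 ± 0.15. The number called was 1 without Merkel replicate 1, Merkel replicate 2 or basal replicate 3, and under 4 other alternatives. The list summed to 1.73 to 3.86 TPM in Merkel libraries, 0.91 to 1.66 in the first and 0.46 to 0.87 in the second basal libraries. Its defining lymphatic members were near 0 in Merkel libraries, Lyve1 at 0.03 to 0.07 TPM and Flt4 at 0. The relative Prox2 was below 1 TPM in every library, at 0.34 to 0.71 TPM in Merkel and 0.63 to 0.97 TPM in the basal ones.

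Ebf1 lies on chromosome 11 from 44617317 to 45008091. Its Merkel libraries were at 6.14, 6.46 and 7.47 TPM and its basal libraries at 0 to 0.05 (log2 fold change 2.92 ± 0.13, limma adjusted p = 6.0e-07). It held 74.3% to 83.2% of the summed TPM of the 4 Ebf genes in Merkel libraries. Ebf4 was at 1.34, 1.00 and 0.97 TPM there and at 0.08 to 0.52 in basal libraries. Ebf3 was at 0.25 to 0.73 TPM and Ebf2 at 0.05 to 0.07 in Merkel libraries.

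Runx1t1, the ETO-family corepressor gene on chromosome 4 from 13743436 to 13893649, was at 6.19, 3.10 and 4.49 TPM in Merkel libraries, against 0 to 0.10 in basal ones. Its log2 fold change was 2.39 ± 0.19 (limma adjusted p = 2.7e-05), and its Merkel libraries differed by up to 2.00-fold, the widest spread of the 6 expressed genes. In the ETO family the most abundant gene was present in both cell types. Cbfa2t2 was at 24.41, 14.87 and 19.41 TPM in Merkel libraries, against 14.58 to 18.47 in basal ones (log2 fold change 0.27, 95% interval -0.12 to 0.67, limma adjusted p = 0.25). Runx1t1 held 15.9% to 18.8% of the summed TPM of the family in Merkel libraries and at most 0.630% in any basal library. Cbfa2t3 was at 1.53 to 2.36 TPM in Merkel libraries, 1.19 to 1.99 in the first and 0.14 to 0.27 in the second basal libraries. Its log2(TPM + 1) difference of 0.82 ± 0.15 fell short of the limit of 1 for a call, while its mean TPM differed 2.46-fold. Cbfa2t3 was called higher with a constant of 0.1 (1.69), with small structural and mitochondrial RNAs removed (1.15) and with the second basal libraries as the only control (1.34).

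**Figure D2:**
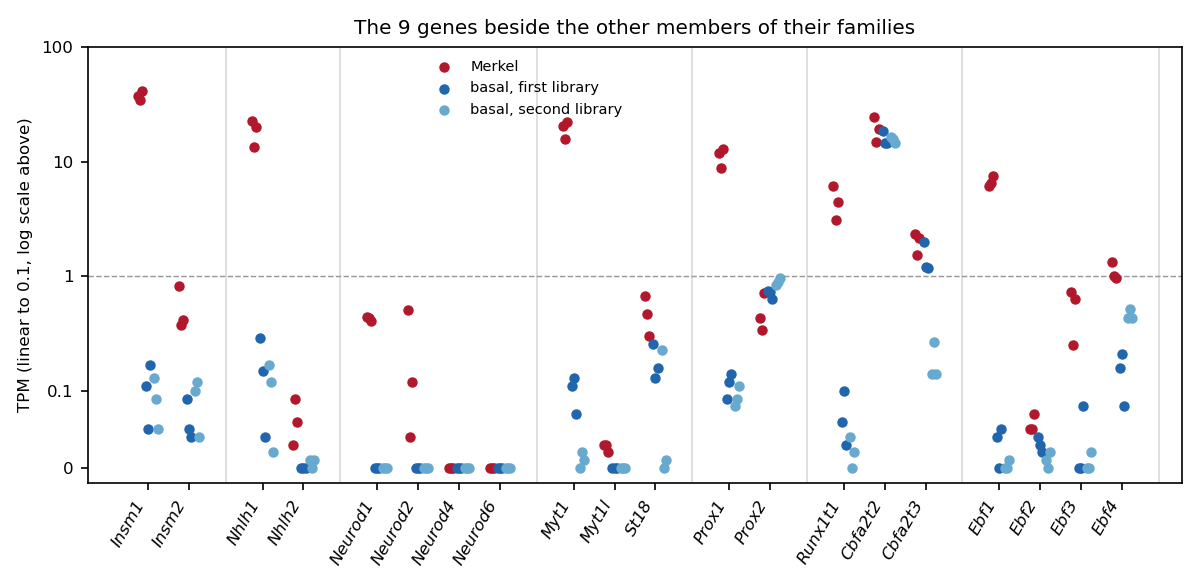
TPM (linear to 0.1, log scale above) of the 9 genes and 11 relatives, grouped by family, with 1 point per library (Merkel, first basal, second basal). In the Insm, Nhlh, Myt, Prox and Ebf families 1 gene stands out in Merkel libraries, while Cbfa2t2 of the ETO family lies between 14.58 and 24.41 TPM in both cell types (dashed line: 1 TPM).

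The 6 expressed genes were all called higher in Merkel cells and 0 lower, a call being an adjusted p under 0.05 with a log2 fold change of at least 1. Among all tested genes 6.79% were called higher and 5.27% lower. Testing required 1 TPM in 3 or more of the 6 values. A gene near 0 in basal keratinocytes was therefore tested only where all 3 Merkel values reached 1 TPM, which already puts it near the fold limit. The count of 6 among 6 tested is thus largely set by that filter and is not read against the background. Insm2, the relative of Insm1, shows the other side of it, at 0.38 to 0.82 TPM in Merkel libraries, 0.04 to 0.12 in basal ones, and not tested. Without the filter, limma over 28451 genes gave Neurod1 an adjusted p = 0.00029, St18 an adjusted p = 0.044 with a log2 fold change of 0.39, and Nhlh2 an adjusted p = 0.072 with 0.08. None of these 3 was called.

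The size of the fold changes rests on the added constant. With 0.1 in place of 1 they were 7.59 for Insm1, 7.03 for Myt1, 6.42 for Nhlh1, 5.78 for Prox1, 5.88 for Ebf1 and 5.03 for Runx1t1. Ebf1 then passed Prox1 in the order, and each of the 6 was still called. Over the other alternatives, which included leaving out each replicate and using the first or the second basal libraries alone, the 6 calls held wherever the gene was tested. Runx1t1 fell below the filter at 5 TPM.

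**Figure D3:**
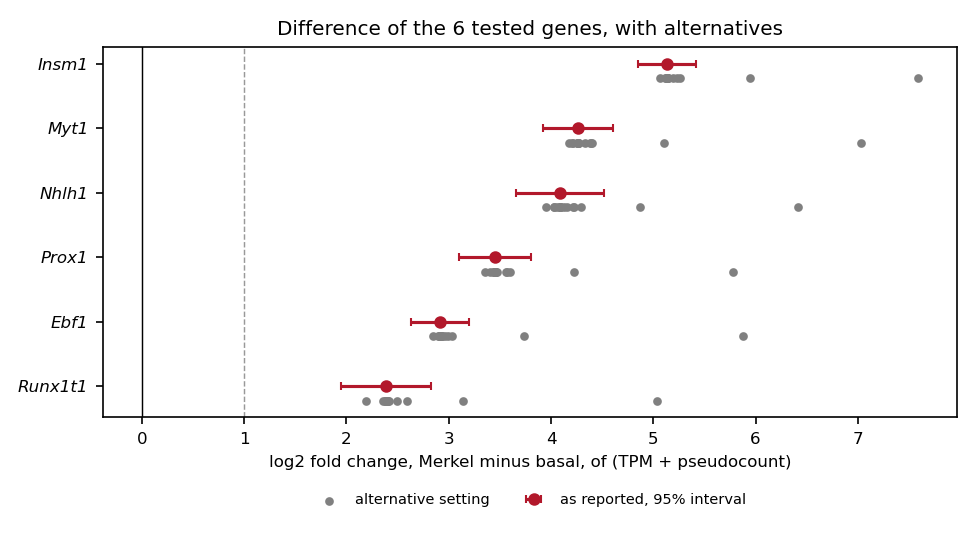
Log2 fold change of Merkel over basal values of TPM plus a constant for the 6 tested genes, with the 95% interval of the limma fit, and in grey the alternatives. The values run from 5.13 for Insm1 down to 2.39 for Runx1t1, and the grey points farthest to the right are those with a constant of 0.1.

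In Merkel cells the mean levels ran from Insm1 (37.6 TPM) through Myt1 (19.5), Nhlh1 (18.6), Prox1 (11.2), Ebf1 (6.69) and Runx1t1 (4.59) to St18 (0.480), Neurod1 (0.427) and Nhlh2 (0.060). The libraries of Myt1 and Nhlh1 overlapped, as did those of Ebf1 and Runx1t1 and those of St18 and Neurod1. The other 5 neighbouring pairs did not overlap. Among the 21734 protein-coding genes Insm1 ranked 1885 by mean Merkel level and Runx1t1 9302.

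Merkel replicate 2 was the lowest of the 3 for 5 of the 6 expressed genes, Ebf1 being the exception. Small structural and mitochondrial RNAs took 53.4% of all TPM in that library, 45.7% in Merkel replicate 1 and 43.1% in Merkel replicate 3. With those RNAs left out and TPM rescaled, Insm1 was at 68.5, 74.4 and 72.2 in Merkel replicates 1, 2 and 3, and replicate 2 was no longer its lowest. Nhlh1 was then at 41.3, 28.9 and 35.1 TPM and Runx1t1 at 11.4, 6.66 and 7.89, so that replicate 2 was still lowest. It was lowest for 4 of the 6 genes on that scale. St18, below 1 TPM as deposited, was at 1.23, 1.01 and 0.527 TPM in Merkel replicates 1, 2 and 3 after this rescaling. Neurod1 was then at 0.811, 0.923 and 0.720 TPM.

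Genes whose levels over the 9 libraries were closest to those of Insm1 were sought by the smallest mean absolute difference of log2(TPM + 1). They were Atp8a2, a phospholipid flippase gene of neurons (difference 0.10), and the homeobox genes Prrxl1 (0.12) and Tlx3 (0.15) of sensory neurons, followed by Sox2 (0.18) and the LIM homeobox gene Lhx3 (0.18). Prrxl1 was at 33.57 to 52.4 TPM in Merkel libraries, against 0.02 to 0.17 in basal ones. Tlx3 was at 23.85 to 37.5 TPM against 0 to 0.05. Sox2 is the gene behind the sort, and its values follow from it.

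Partners and related regulators were then examined in 8 lists holding 91 genes, of which 46 were tested. Of these 10 were called higher and 1 lower, with a median log2 fold change of 0.01 against -0.15 over all tested genes. Scaling each library by its median ratio moves the median of all genes to 0.02, so small fold changes lie within that shift. The called genes fall into regulators near 0 in basal keratinocytes, for which the filter largely sets the call, and a few that both cell types express.

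Among the LSD1-CoREST cofactors through which Insm1 acts, all 10 were tested, 1 was called higher and 0 lower (median -0.20). The called gene was Rcor2, a CoREST gene, at 44.46, 27.22 and 39.98 TPM in Merkel libraries, against 8.58 to 12.23 in basal ones (log2 fold change 1.73 ± 0.18, limma adjusted p = 0.00011). Every Merkel library lay above every basal library, which 11.7% of tested genes showed. Rcor1, the founding CoREST gene, was at 20.95, 21.93 and 21.34 TPM against 29.80 to 39.17. Every Merkel library lay below every basal library, as in 26.2% of tested genes, and its log2 fold change of -0.57 ± 0.12 (limma adjusted p = 0.0041) fell short of a 2-fold change. The demethylase gene Kdm1a was at 50.1 ± 7.70 against 48.6 ± 2.36 TPM (SD, n = 3), and the deacetylase gene Hdac2 at 77.8 ± 5.11 against 75.3 ± 4.93.

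E proteins, the common partners of bHLH factors, were abundant in both cell types. In TPM, Tcf3 was at 49.1 ± 9.05 in Merkel cells against 52.3 ± 1.18, and Tcf12 at 48.5 ± 11.2 against 59.4 ± 13.2. Of the list of E proteins, Id and Hes genes 1 of 9 tested was called, Hes6, which promotes neuronal differentiation. It was at 46.02, 30.07 and 44.16 TPM in Merkel libraries against 6.48 to 9.74 (log2 fold change 2.15 ± 0.17, limma adjusted p = 2.5e-05). The inhibitor gene Id4 was at 9.35 ± 0.750 against 5.23 ± 1.02 TPM, without a call. Of 12 proneural genes only Atoh1 was tested, and it was called higher, at 108 ± 11.6 against 0.160 ± 0.110 TPM. The proneural gene Neurog1 was listed at 0 throughout and Neurog3 at 0.08 to 0.12 TPM in Merkel libraries.

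Of 7 further SNAG-domain genes 2 were tested and Gfi1 was called higher, at 24.6 ± 4.69 against 0.0783 ± 0.0525 TPM (log2 fold change 4.56 ± 0.16). Snai2 had a log2 fold change of -0.97 ± 0.16 (limma adjusted p = 0.0017). Snai2 was called lower without Merkel replicate 1 (-1.07) or basal replicate 2 (-1.12), with a constant of 0.1 (-1.04) and with the second basal libraries as the only control (-1.08). Among 8 Runx factors and corepressors of the ETO family, 0 were called higher and 1 lower (median -0.31). Runx1 was at 15.5 ± 1.03 against 11.8 ± 2.30 TPM. Of the LIM-only genes and Ebf partners 5 of 8 were tested and Zfp521, a zinc finger partner of Ebf1, was called higher (1.08 ± 0.13). That call was lost without Merkel replicate 3 (0.99) and against the second basal libraries alone (0.98).

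Of 22 neuroendocrine and sensory factors 9 were tested, and 5 were called higher and 0 lower. These were Pou4f3 (6.72), Sox2 (5.56), Lhx3 (5.49), Isl1 (5.25) and Pou4f1 (2.01), in log2 fold changes. Regulators of pancreatic endocrine cells that act with Insm1 and Neurod1 were near 0 in Merkel libraries, Nkx2-2 at 0 to 0.05 TPM, and Pax4, Pdx1 and Rfx6 at 0. Pax6 varied between Merkel libraries, from 0.79 to 4 TPM, and was not tested. Rest, the repressor of neuronal genes, was at 16.31, 11.82 and 13.66 TPM in Merkel libraries against 16.81 to 30.32. Every Merkel library of Rest lay below every basal library, as in 26.2% of tested genes, with 16.31 against 16.81 TPM at the nearest. Its log2 fold change of -0.74 ± 0.17 (limma adjusted p = 0.0077) fell short of a 2-fold change.

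**Figure D4:**
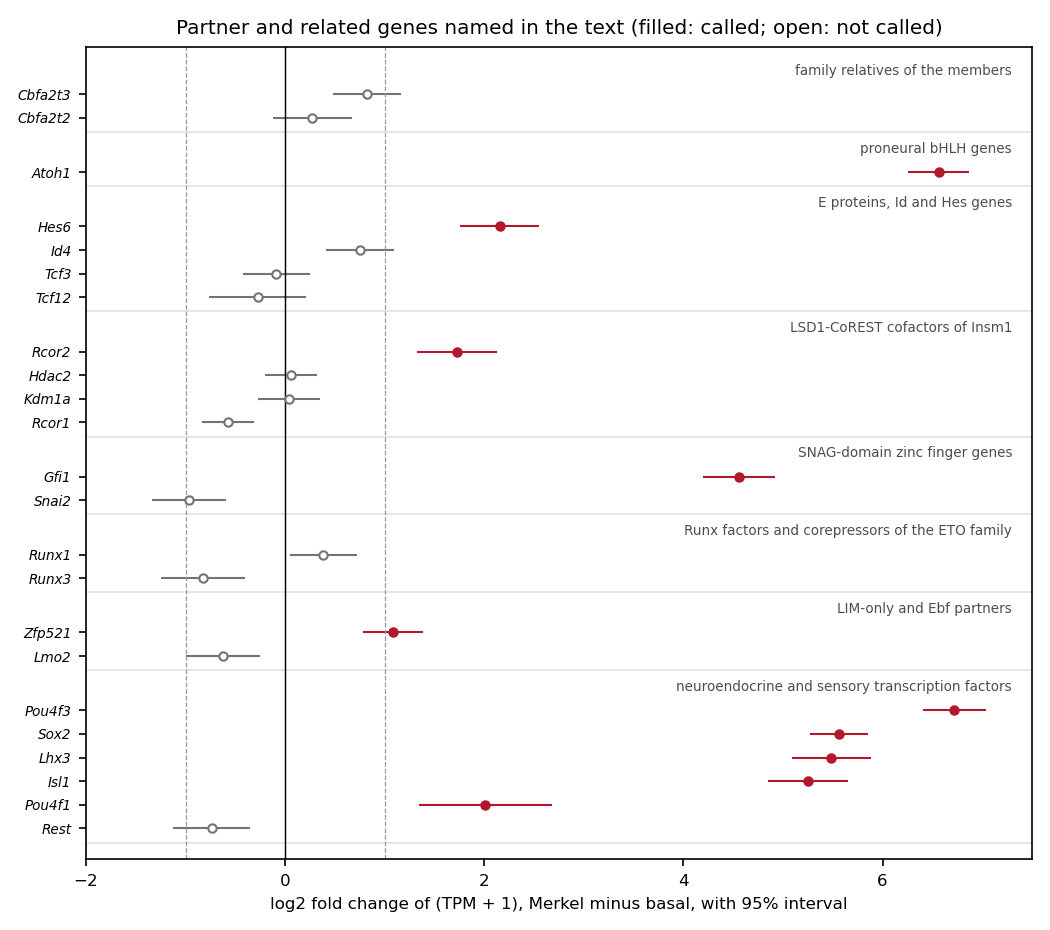
Log2 fold change of (TPM + 1), Merkel minus basal, with 95% intervals from the limma fit, for 23 of the 46 tested partner and related genes, by list. Filled points are called; among the LSD1-CoREST cofactors drawn Rcor2 (1.73) lies to the right of the dashed line at 1, and Kdm1a, Hdac2 and Rcor1 lie between the lines at -1 and 1.

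Some markers of other cell types were also higher in Merkel libraries. Of 10 markers of dermal fibroblasts and the dermal papilla 8 were called higher in Merkel libraries. Their list summed to 222.7 to 342.3 TPM there, 42.49 to 110.6 in the first and 118.7 to 273.9 in the second basal libraries. The 8 were Col1a1, Col1a2, Col3a1, Pdgfra, Corin, Alx4, Twist1 and Vcan, and none of the 10 was at 0 in Merkel libraries. Col1a2 and Vcan were also called higher in second basal libraries, against the first. With the sample number as a block Dcn was called as well (1.33, limma adjusted p = 0.0048 against 0.165 without the block). The most abundant, Dcn, was at 135 ± 38.7 against 124 ± 54.6 TPM, without a call, while Corin was at 9.06 ± 1.10 against 0.120 ± 0.0150, Pdgfra at 6.38 ± 1.07 against 0.0833 ± 0.0225 and Twist1 at 4.67 ± 0.794 against 0.0283 ± 0.0369. These levels are of the size of those of Ebf1, Runx1t1 and Prox1. Col3a1 was at 29.9 ± 5.87 against 0.965 ± 0.228 TPM and Col1a2 at 38.3 ± 4.69 against 5.12 ± 0.847. Those 2 levels are of the size of those of Insm1, Myt1 and Nhlh1. The part of such cells in the results of all these expressed genes was not tested.

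Of 6 leukocyte markers Cd79a, a B cell gene, was called higher (2.14 ± 0.380 against 0.192 ± 0.0362 TPM). Csf1r and Ptprc were called lower, and with the second basal libraries as the only control both calls were lost and the fold changes turned positive (0.13 for each, limma adjusted p = 0.755 and 0.729). The list summed to 11.13 to 22.67 TPM in Merkel, 91.06 to 219.8 in the first and 8.89 to 17.53 in the second basal libraries. The B cell marker Ms4a1 was at 0 in all Merkel libraries. Of 6 neuronal markers 2 were called higher, Snap25 (9.82 ± 2.43 against 0.0550 ± 0.0328 TPM) and Stmn2 (3.82 ± 0.877 against 0.0267 ± 0.0379). That list summed to 10.8 to 16.65 TPM in Merkel, 0.48 to 0.52 in the first and 0.08 to 0.13 in the second basal libraries. Its neurofilament members Nefl and Nefm were at no more than 0.15 TPM in any Merkel library. Of 6 mural and adipocyte markers Rgs5 was called higher (2.46 ± 0.913 against 0.0483 ± 0.0382 TPM), the number called was 2 without Merkel replicate 2 and 0 to 3 under other alternatives, and Adipoq was at 0 in Merkel libraries. That list, led by Cebpa at 71.0 ± 5.67 against 51.0 ± 7.17 TPM, summed to 70.73 to 80.27 TPM in Merkel, 45.2 to 62.26 in the first and 42.4 to 60.68 in the second basal libraries.

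**Figure D5:**
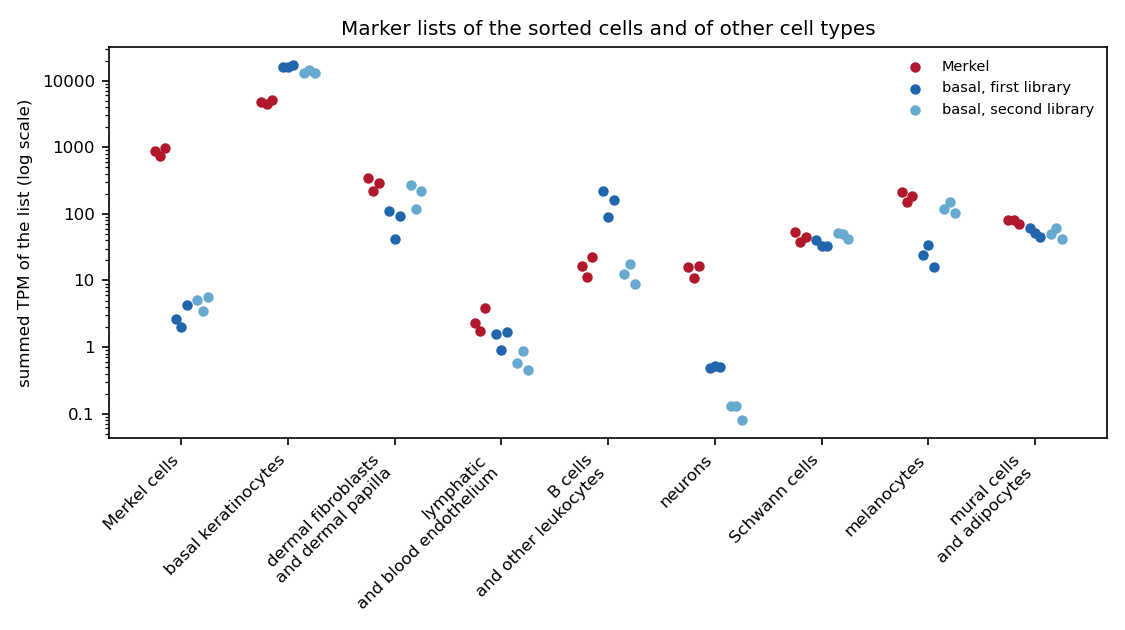
Summed TPM (log scale) of marker lists in each of the 9 libraries, 1 point per library. Merkel markers separate the groups, leukocyte markers are high in the first basal libraries (91.06 to 219.8 TPM), and fibroblast and dermal papilla markers reach 222.7 to 342.3 TPM in Merkel libraries.

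The first and second basal libraries were compared because the main test averages them. None of the 9 genes reached the level for testing there, and limma without a filter gave no adjusted p under 0.11 for the 8 genes above 0 in those libraries. Over all 13477 genes tested 0.675% were called higher in the second libraries and 3.67% lower. Among the partner and related genes 0 were higher and 4 lower, Runx3 (-1.95 ± 0.23), Lmo2 (-1.94 ± 0.31), Lyl1 and Cbfa2t3 (-1.04 ± 0.18). They were 2 of 3 tested family relatives, 1 of 7 tested Runx factors and corepressors, and 1 of 4 tested LIM-only genes and Ebf partners. No call fell among the 9 E protein, Id and Hes, 10 LSD1-CoREST, 1 SNAG-domain and 4 neuroendocrine and sensory genes tested. Runx3, Lmo2, Lyl1 and Cbfa2t3 are known from blood cells. The leukocyte markers Csf1r (-3.43) and Ptprc (-3.31) were lower in the second libraries too, and the part of such cells in these results was not tested. The Runx3 call held without each library in turn. The others were lost without the first basal library of number 3 (limma adjusted p = 0.055 for Lmo2, 0.086 for Lyl1 and 0.054 for Cbfa2t3) or the second library of number 3 (adjusted p = 0.062, 0.10 and 0.078). Without the second library of number 1 Lyl1 (0.072) and Cbfa2t3 (0.062) were lost, without that of number 2 Lyl1 (adjusted p = 0.067), and without the first library of number 1 Cbfa2t3 (-0.89). Melanocyte markers, led by Dct and 6 of 6 called higher in the second libraries, summed to 150.4 to 210.8 TPM in Merkel, 15.84 to 34.34 in the first and 104.6 to 151.6 in the second basal libraries. Of them 5 (Dct, Pmel, Mlana, Tyrp1 and Tyr) were called higher in Merkel cells, and 0 with the second basal libraries as the only control. The calls in the second libraries were lost for Tyrp1 without any 1 of 5 libraries, the first of number 2 being the exception (limma adjusted p = 0.0532 to 0.0847). For Mitf they were lost without the first library of number 1 (0.0524) or 3 (0.0689) or the second of number 1 (0.0653) or 2 (log2 fold change 0.97). Without a filter both were lost (limma adjusted p = 0.0583 for Tyrp1 and 0.0523 for Mitf), as was the call of Lyl1 (adjusted p = 0.0655). The Schwann cell list, led by Erbb3, summed to 38.13 to 53.55, 33.07 to 40.31 and 41.58 to 51.63 TPM in that order, with 0 of 3 tested called in Merkel cells by limma and Sox10 called higher in the second libraries (1.84 ± 0.18).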

How the data were processed

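Stranded total RNA libraries of 3 Merkel and 6 basal samples were sequenced paired-end (125 bases), per the labels' protocols. Submitters processed reads with Trimmomatic, STAR and RSEM on mm10, per the submitters' processing notes. No version, annotation or strand setting is given in the sources used here. Gene TPM were deposited by the authors, with 49671 Ensembl identifiers, of which 49326 matched a GENCODE M21 symbol without the version suffix, and 1 EGFP row. TPM keeps no depth.

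TPM were transformed to log2(TPM + 1). First and second basal values with the same number were averaged, and genes at 1 TPM or more in at least 3 of 6 values were tested with limma 3.58.1 in R 4.3.3 (variance trend, two-sided, Benjamini-Hochberg). The second basal libraries were compared with the first by the same fit, unaveraged. Means ± SD are over 3 values, after averaging the TPM of first and second basal libraries. Fits that leave out a replicate kept the genes of the full fit. The fit was tested on simulated data. Tables and plots were made with Python 3.11.15, pandas 2.3.3 and matplotlib 3.10.9.

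Same-numbered Merkel and averaged basal values deviated together (r = 0.39, 0.36 and 0.20 over tested genes), and the first and second basal libraries likewise (0.47, 0.53 and 0.38), so the numbers pair the samples, on the data's evidence alone. The rule for named genes took all 9 genes, the called genes of each list (up to 4 per list of partners), relatives at 1 TPM or more, the most abundant marker of each list and the 5 genes closest to Insm1, without predicted genes. Other list genes, such as Kdm1a, Rcor1, Hdac2 and Rest, and the last called neuroendocrine factor, Pou4f1, were chosen after their values were seen. Some list genes, 1 called lower among them, are counted but not reported by name here. Members and lists were chosen with earlier results of these data known.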

Additional observations from a re-analysis of the deposited data

How the results depend on the processing

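Each of the 6 expressed genes kept its direction and its call under every alternative in which it was tested, and no fit called any of the 9 genes lower. The number called higher was 6 in each, except 5 with a filter at 5 TPM. With the sample number as a replicate block on averaged values the count was again 6, with limma adjusted p of 1.1e-10 for Insm1 and 5.0e-07 for Runx1t1, and among the genes named here the block changed 1 call, that of Dcn between second and first basal libraries; all genes gave 960 higher and 759 lower calls under it. Without Merkel or basal replicates in turn the fold change ran from 5.07 to 5.19 for Insm1 and from 2.19 to 2.59 for Runx1t1. The number of neighbouring pairs that overlapped in level was 3, and 2 without Merkel replicate 1 or 3.

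Counts over all genes moved more than those of the 9. Against 938 higher and 729 lower, a filter at 5 TPM gave 486 and 449, a constant of 0.1 gave 1254 lower, and median-ratio scaling gave 442 lower, or 71.2% of calls higher against 56.3%. Between second and first basal libraries, 91 genes were higher and 495 lower. A constant of 0.1 gave 147 higher, and leaving out 1 library gave 59 to 120 higher and 273 to 574 lower. Against the second basal libraries alone 4 fold changes of Merkel cells turned from negative to positive: Runx3 (0.15), Lmo2 (0.34), Ptprc (0.13) and Csf1r (0.13). The causes of these shifts were not tested. Unknown depth limits the genes near 0 most, St18, Neurod1 and Nhlh2 among them.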
